A study of Mus musculus with 60 samples.

Results

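Macrophage and complement genes were followed through 50 lymphomas of Eµ-myc mice and 10 normal lymphoid tissues of wild-type mice. The 10 genes are C1qa, C1qb, C1qc, Vsig4, Marco, Cd163, Cd68, Mpeg1, Adgre1 and Csf1r. They were chosen by name, as genes that one or more kinds of macrophage express, but with earlier results of these data known. Counts over the 10 therefore describe this set only. On the Affymetrix Mouse430_2 array 15 probe sets name one of them alone. All 10 passed the filter on dim probe sets, as did 12600 of the 18193 genes that a probe set names alone. Each gene was read from its probe set with the highest mean, so levels of different genes are not compared with each other.

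The lymphomas came from Em-myc transgenic mice, in which the Eµ enhancer of the immunoglobulin heavy chain locus drives Myc in the B lineage. In 25 lymphomas the onset was early, at 32 to 76 days (median 65), and in 25 it was late, at 253 to 649 days (median 398). The normal tissues, all wild-type, were 6 young lymph nodes sampled at 38 to 73 days, 3 old ones sampled at 387 to 438 days, and 1 spleen sampled at 304 days. Each array held 1 whole tumour or organ. The labels do not say from which organ a tumour was taken, nor which arrays share a mouse, a litter or a batch, so p-values cover only how far these samples differ among themselves.

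Macrophages are phagocytes that the receptor Csf1r keeps alive, and lymph node and spleen hold several resident kinds of them. Those of the lymph node's medullary sinuses and the spleen's marginal zone carry the scavenger receptor Marco, those of the splenic red pulp carry Cd163, and those that engulf dying B cells inside follicles make C1q. C1q, assembled from the chains of C1qa, C1qb and C1qc, starts the classical complement pathway and marks dead cells for removal. In Eµ-myc lymphoma, macrophages that engulf apoptotic tumour cells give the tissue its starry-sky look.

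Per RefSeq (GRCm38.p6), C1qa, C1qc and C1qb neighbour each other on chromosome 4, while Marco lies on chromosome 1 and Cd68 on chromosome 11. The table of RefSeq promoters used here holds C1qb, C1qc, Marco, Cd68, Vsig4, Cd163 and Mpeg1 but not C1qa or Adgre1. The 250 bases before the start that this table uses are shown for 4 of them, all on the minus strand, because C1q, Marco and Cd68 followed different courses in the tumours. Capitals mark GAGGAA on either strand, the core bound by the myeloid factor PU.1 and other Ets factors, and TGANTCA, the AP-1 motif, which reads the same on both strands. The stretches are C1qb at chr4:136886201-136886450, C1qc at chr4:136892915-136893164, Marco at chr1:120505025-120505274 and Cd68 at chr11:69666171-69666420. The last 22 bases of the C1qc stretch lie within the span that RefSeq's gene table gives for C1qc.
C1qb: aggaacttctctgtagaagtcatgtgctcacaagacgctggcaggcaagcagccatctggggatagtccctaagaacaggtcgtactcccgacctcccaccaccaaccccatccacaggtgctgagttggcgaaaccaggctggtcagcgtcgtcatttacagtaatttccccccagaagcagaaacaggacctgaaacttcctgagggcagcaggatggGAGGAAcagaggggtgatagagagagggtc
C1qc: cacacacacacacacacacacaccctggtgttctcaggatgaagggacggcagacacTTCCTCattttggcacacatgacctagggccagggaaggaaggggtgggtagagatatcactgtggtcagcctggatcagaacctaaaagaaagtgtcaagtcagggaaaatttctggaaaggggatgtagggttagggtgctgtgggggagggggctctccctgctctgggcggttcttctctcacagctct
Marco: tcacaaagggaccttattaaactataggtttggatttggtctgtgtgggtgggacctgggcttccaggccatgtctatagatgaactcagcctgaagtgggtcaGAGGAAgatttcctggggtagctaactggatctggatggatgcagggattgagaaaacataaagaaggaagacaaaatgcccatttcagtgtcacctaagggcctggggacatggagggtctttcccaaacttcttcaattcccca
Cd68: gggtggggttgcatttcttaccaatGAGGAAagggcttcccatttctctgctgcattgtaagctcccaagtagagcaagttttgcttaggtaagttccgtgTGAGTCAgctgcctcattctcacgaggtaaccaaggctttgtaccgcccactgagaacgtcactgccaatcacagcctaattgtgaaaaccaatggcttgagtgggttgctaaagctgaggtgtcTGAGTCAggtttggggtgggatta

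GAGGAA stood once in each of the 4 stretches and 2 times in that of Vsig4, and was not found in those of Cd163 and Mpeg1. Over 32851 RefSeq promoters of the same length, with those of chromosome 18 left out, 23.3% held it. TGANTCA stood 2 times before Cd68 and in none of the other 6 stretches, and 6.75% of the promoters held it. These matches describe the letters only.

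Against lymph node some of the 10 genes fell far, some fell a little and some did not pass the test. Cd68 rose in late lymphomas. In early lymphomas 7 of the 10 fell and none rose, and the median log2 change over the 10 was -0.68. Over all 12600 genes tested the median was -0.09, with 38.1% called lower and 29.7% called higher. In late lymphomas 3 fell (Marco, Csf1r and C1qa), 1 rose (Cd68) and 6 were not called, with a median of -0.38 against -0.05 over all genes, of which 29.0% were called lower and 24.0% higher. The fits of early and late lymphomas share their 9 lymph nodes. A call means an adjusted p of at most 0.05 in limma, after Benjamini-Hochberg adjustment over all probe sets kept, and log2 changes are on the log2(intensity + 15.7) scale with their standard error. In whole tissue, fewer cells of a type and less RNA per cell cannot be told apart.

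**Figure D1:**
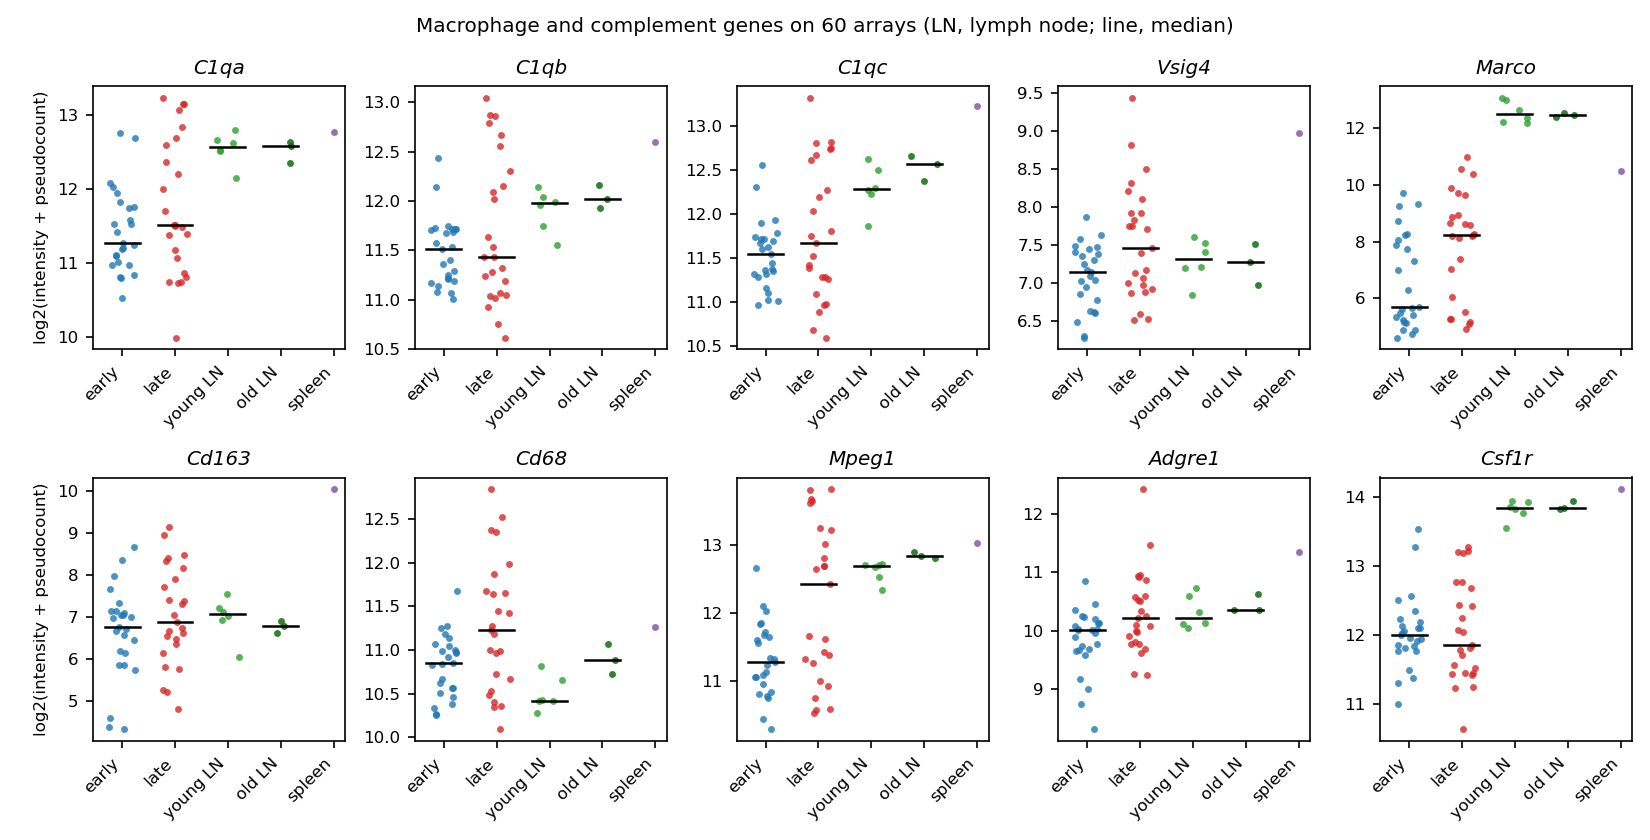
Levels of the 10 genes on 60 arrays, as log2(intensity + 15.7), with 1 point per array and a line at the median of each group with more than 1 array. Marco and Csf1r lay below every lymph node in all 50 lymphomas. The share of all genes that do so was not counted. Of the 25 late lymphomas, 14 lay above every lymph node for Cd68, 12 for Vsig4 and 8 each for Mpeg1 and Cd163. For C1qb 7 did so, for C1qc and Adgre1 6 each and for C1qa 5.

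**Figure D2:**
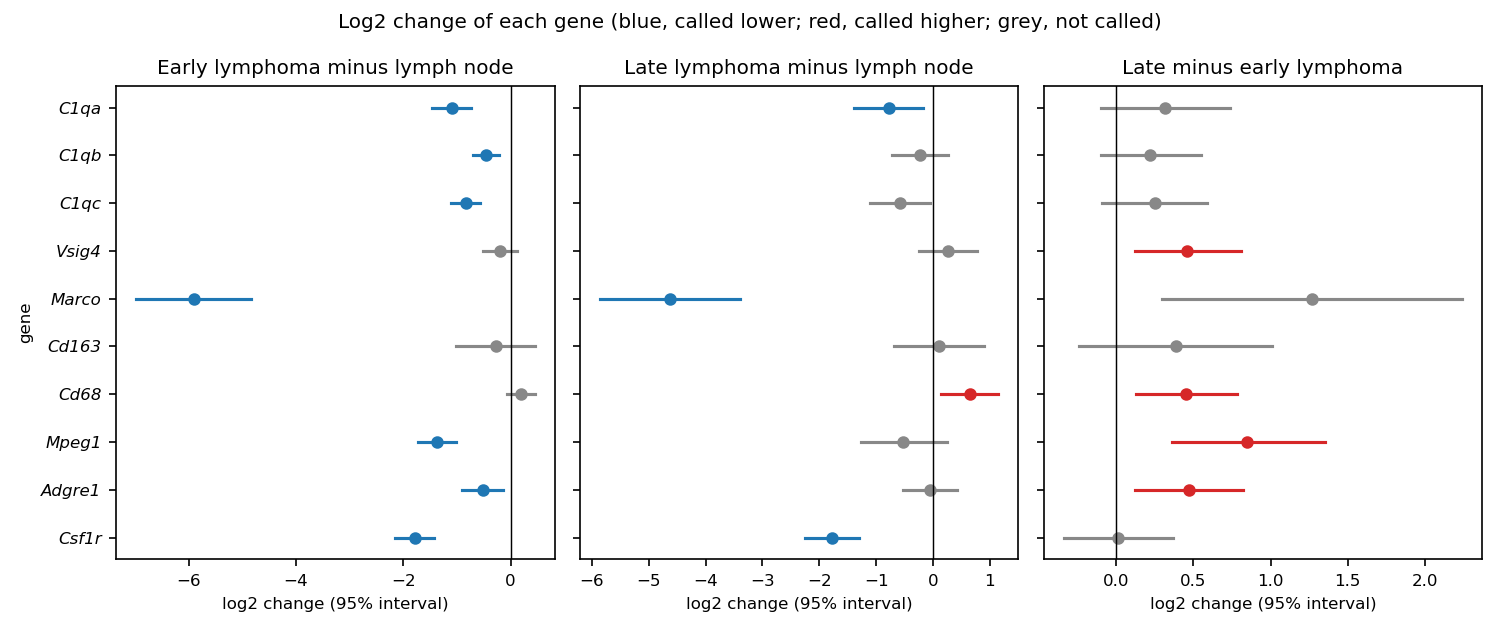
Log2 change of each gene with its 95% interval from limma, for early lymphomas (n = 25) and late lymphomas (n = 25) against lymph nodes (n = 9), and for late against early lymphomas. Blue marks a call of lower and red a call of higher. Marco changed by -5.91 in early and -4.63 in late lymphomas, and Mpeg1, Cd68, Vsig4 and Adgre1 rose from early to late.

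Marco, a scavenger receptor that binds bacteria and particles, showed the deepest fall of the 10. Its level in lymph nodes was 12.17 at the lowest, 12.44 at the median and 13.06 at the highest. In early lymphomas it was 4.62, 5.70 and 9.73, and in late lymphomas 4.91, 8.23 and 10.99. The spleen stood at 10.49, below every lymph node. No lymphoma of either group reached the lowest lymph node. In plain intensity, the median lymph node measured 5559, the median late lymphoma 284 and the median early lymphoma 36.4. The change was -5.91 ± 0.53 in early lymphomas (95% interval -6.98 to -4.84, adjusted p = 2.09e-12, limma) and -4.63 ± 0.61 in late lymphomas (adjusted p = 6.47e-08, limma). The size depends on the pseudocount: one 4 times larger gave -5.17 and -4.21, and one 10 times smaller gave -6.33 and -4.85. Within the tumours Marco varied more than the other members, with an SD of 1.66 in early and 1.89 in late lymphomas, against 0.31 in lymph nodes. In 15 early and 9 late lymphomas it lay below the median of its own array, where the signal is dim and the order of values uncertain. The second Marco probe set gave -5.25 and -4.26.

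Csf1r, the receptor for the macrophage growth factors Csf1 and Il34, was the other member below every lymph node in all 50 tumours. The share of all genes that lie below every lymph node in all tumours was not counted, so this separation has no background. Its lymph node levels ran from 13.55 through a median of 13.84 to 13.95. Early lymphomas ran from 10.99 through 12.00 to 13.54, and late lymphomas from 10.63 through 11.85 to 13.27. The highest early lymphoma lay just under the lowest lymph node, and the spleen, at 14.11, lay above all nodes. Csf1r fell by 1.79 ± 0.18 in early lymphomas (adjusted p = 2.2e-11, limma) and fell by 1.78 ± 0.24 in late lymphomas (adjusted p = 9.84e-08, limma). All 3 of its probe sets fell in both groups, with log2 changes from -2.42 to -1.54. Between late and early lymphomas it differed by 0.01 ± 0.18, with a 95% interval of -0.34 to 0.37.

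The C1q chains fell less than Marco or Csf1r, and only in part of the tumours. C1qa ran from 12.16 through 12.58 to 12.80 in lymph nodes, from 10.53 through 11.27 to 12.76 in early lymphomas and from 10.00 through 11.52 to 13.23 in late lymphomas. Of the early lymphomas 23 lay below every lymph node and none above them, while of the late lymphomas 16 lay below and 5 above. C1qa fell by 1.10 ± 0.18 in early lymphomas (2.14-fold, adjusted p = 2.08e-06, limma) and fell by 0.78 ± 0.30 in late lymphomas (adjusted p = 0.0261, limma). The late call was lost after centring each array on its median (-0.50, adjusted p = 0.134, limma), without lymphomas low in B lineage genes (-0.65, adjusted p = 0.0764, limma) and against the old lymph nodes alone (-0.77, adjusted p = 0.272, limma). C1qc fell by 0.84 ± 0.13 in early lymphomas (adjusted p = 9.17e-07, limma), with 21 of 25 below every node. In late lymphomas its change of -0.58 ± 0.26 was not called (adjusted p = 0.0538, limma). C1qb, whose early level ran from 11.01 to 12.43 around a median of 11.51 against 11.56 to 12.16 in nodes, fell by 0.46 ± 0.12 (adjusted p = 0.000863, limma). In late lymphomas C1qb changed by -0.23 ± 0.25, with 14 tumours below the lymph nodes, 4 within their range and 7 above (adjusted p = 0.441, limma). The fall of C1qb in early lymphomas rests on the authors' scaling: after centring each array on its median it was -0.12 (adjusted p = 0.448, limma), while C1qa and C1qc kept their early calls.

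The gap between C1q and Marco follows in large part from the fall of Marco given above, and it is a description with no test. Since the probe sets differ, the size of the gap has no meaning by itself, and only its change between arrays is read. The mean log2 level of the 3 C1q chains minus that of Marco lay between -0.59 and 0.00 in the 9 lymph nodes. It lay between 1.69 and 7.71 in early and between 1.95 and 7.60 in late lymphomas, and at 2.38 in the spleen. The upper values are uncertain, since Marco was dim in the 15 early and 9 late lymphomas where it lay below the array median. The mean of the chains minus Csf1r also moved, from -1.69 to -1.42 in lymph nodes to -1.54 to 0.02 in early and -2.26 to 0.18 in late lymphomas, where the ranges overlap.

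Mpeg1, a pore-forming protein of the phagosome, fell in early lymphomas and was spread wide in late ones. Its lymph node levels ran from 12.33 through 12.71 to 12.90. In early lymphomas the levels were 10.29, 11.27 and 12.66, with 24 of 25 below every node. In late lymphomas they were 10.53, 12.42 and 13.81, with 12 below, 5 within and 8 above. It fell by 1.37 ± 0.18 in early lymphomas (adjusted p = 1.8e-08, limma), and its change of -0.52 ± 0.37 in late lymphomas was not called (adjusted p = 0.248, limma). Adgre1, which encodes the macrophage surface marker F4/80, ran from 10.04 to 10.74 in lymph nodes, from 8.31 to 10.85 in early and from 9.24 to 12.42 in late lymphomas. It fell by 0.52 ± 0.18 in early lymphomas (adjusted p = 0.0119, limma), a call lost after centring on the median (-0.18, adjusted p = 0.347, limma) and against the young lymph nodes alone (-0.48, adjusted p = 0.0599, limma). In late lymphomas it changed by -0.05 ± 0.23 (95% interval -0.53 to 0.43).

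Cd68, a glycoprotein of late endosomes and lysosomes, was the one gene of the 10 to rise against lymph node. Its levels ran from 10.28 through 10.65 to 11.07 in lymph nodes, from 10.26 through 10.86 to 11.67 in early and from 10.10 through 11.22 to 12.83 in late lymphomas. The early lymphomas overlapped the nodes in 18 of 25 cases, and 14 of the 25 late lymphomas exceeded every node. The change was 0.19 ± 0.13 in early lymphomas (95% interval -0.06 to 0.45, adjusted p = 0.172, limma) and 0.65 ± 0.25 in late lymphomas (1.57-fold, adjusted p = 0.0273, limma). Centring on the median made the early value 0.53 (adjusted p = 0.00162, limma). The late call was lost without young lymph node 4 (adjusted p = 0.053, limma) and against the old lymph nodes alone (0.39, adjusted p = 0.532, limma).

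Vsig4, a receptor for C3b on resident macrophages, and Cd163, the receptor that takes up haptoglobin-bound haemoglobin, were dim in lymph node, where both lay below the array median in all 9. Of 25 early lymphomas Vsig4 lay below it in 17 and Cd163 in 21, and of 25 late lymphomas in 13 and 16. Vsig4 ran from 6.83 to 7.60 in nodes, from 6.28 to 7.86 in early lymphomas and from 6.50 to 9.43 in late lymphomas, and 12 late lymphomas exceeded every node. Its changes were -0.20 ± 0.16 in early (95% interval -0.52 to 0.12) and 0.27 ± 0.25 in late lymphomas (95% interval -0.24 to 0.77), neither called. Cd163 ran from 6.06 to 7.54 in nodes, from 4.34 to 8.66 in early and from 4.82 to 9.14 in late lymphomas. Its changes of -0.28 ± 0.36 and 0.11 ± 0.39 were not called, and their intervals reached from -1.01 to 0.45 and from -0.68 to 0.90. In the spleen both stood far above the nodes, Cd163 at 10.03 and Vsig4 at 8.97. No lymphoma reached that Cd163 level, and the highest late lymphoma passed that of Vsig4.

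The lymphomas and lymph nodes also differed in markers of other cells. The mean log2 level of 7 lymphatic endothelial markers was 9.49 to 10.22 in lymph nodes, 7.34 to 8.96 in early and 7.05 to 9.51 in late lymphomas. Among the 7, Reln alone went the other way, with medians of 9.83 in nodes, 12.53 in early and 10.53 in late lymphomas. The mean log2 level of 8 vessel and stroma markers was 11.29 to 12.47, 9.04 to 10.65 and 8.73 to 11.00 in the same order. The 6 T cell markers lay at 11.09 to 11.55 in nodes and at no more than 8.82 in early and 11.10 in late lymphomas, and the 7 conventional dendritic cell markers at 9.39 to 9.74 against at most 7.81 and 8.34. Their part in the falls of the macrophage genes was not tested. Array medians of intensity were 183 to 198 in lymph nodes and 122 to 206 in lymphomas. Of the Gapdh control, the log2 signal at the 3-prime end minus that at the 5-prime end overlapped between groups, at -0.51 to -0.30 in nodes, -0.49 to -0.29 in early and -0.61 to -0.30 in late lymphomas.

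The series was designed to set early against late tumours, and here all 10 genes had positive log2 changes while 4 passed the test. Mpeg1 rose by 0.85 ± 0.25 (1.8-fold, adjusted p = 0.0113, limma), with 11 of 25 late lymphomas above every early one. Vsig4 rose by 0.46 ± 0.17 (adjusted p = 0.0428, limma; 8 of 25), Adgre1 by 0.47 ± 0.17 (adjusted p = 0.0432, limma; 6 of 25) and Cd68 by 0.45 ± 0.16 (adjusted p = 0.037, limma; 6 of 25). The median change over the 10 was 0.42, against 0.01 over all genes, of which 11.1% were called higher and 12.7% lower. The 4 calls became 1 after centring on the median, with no filter and with RNA ratios as covariates, 2 without lymphomas low in B lineage genes and 0 without those highest in plasma cell genes. Marco missed the threshold narrowly at 1.27 ± 0.48 (adjusted p = 0.0502, limma). The 3 C1q chains changed by 0.22 to 0.32 and were not called, with intervals reaching from -0.10 to 0.74 for C1qa. Leaving out each lymphoma in turn, Mpeg1 kept its call every time, whereas Cd68 lost it in 10, Adgre1 in 21 and Vsig4 in 23 of 50 cases, and Marco gained one in 18.

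In 5 late lymphomas (116, 117, 127, 131 and 133) the rise of Mpeg1 and Cd68 went with markers of plasmacytoid dendritic cells, interferon-producing cells that depend on the factor Tcf4. The mean log2 level of the 4 markers Siglech, Bst2, Tcf4 and Ccr9 was 10.90 to 12.76 in these 5, 7.40 to 9.97 in the other 20 late lymphomas, 7.25 to 8.71 in early lymphomas and 10.10 to 10.44 in lymph nodes. Siglech alone was 11.05 to 12.45 in the 5 and at most 8.91 in the other 20. Mpeg1 was 13.61 to 13.81 in the 5, above every other array of the series, and 10.53 to 13.24 in the other 20. Cd68 was 11.67 to 12.83 in the 5 and 10.10 to 11.99 in the other 20.

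C1q did not follow. The mean of its chains was 10.93 to 12.15 in the same 5 lymphomas, with a median of 11.37, and 10.44 to 13.20 in the other 20, with a median of 11.62. Csf1r was 11.44 to 12.07 in the 5, inside the range of the others, and Marco was 5.26 to 8.92. The mean of 5 B cell markers was 7.96 to 10.97 in them, with a median of 8.58, against medians of 11.43 in the other 20 late lymphomas and 11.72 in lymph nodes. In late lymphoma 136, the neutrophil markers stood at 14.78, against a median of 8.32 in late lymphomas, and Adgre1 at 12.42, its highest level on any array. These samples were singled out after their values were seen.

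Without these 6 lymphomas, 1 member was called higher in late against early lymphomas in place of 4. Mpeg1 then changed by 0.39 (adjusted p = 0.208, limma), Cd68 by 0.17 (adjusted p = 0.4, limma), Adgre1 by 0.38 (adjusted p = 0.126, limma) and Vsig4 by 0.49 (adjusted p = 0.0577, limma). Marco rose, by 1.71 (adjusted p = 0.0205, limma). Against lymph node, the late rise of Cd68 (0.37, adjusted p = 0.109, limma) and the fall of C1qa (-0.63, adjusted p = 0.0926, limma) were no longer called, while Mpeg1 fell by 0.98 (adjusted p = 0.0059, limma), and Marco and Csf1r kept their calls. The rise of Mpeg1 from early to late was also lost without 6 lymphomas low in B lineage genes (0.62, adjusted p = 0.056, limma). These were early lymphoma 6 and late lymphomas 117, 127, 130, 131 and 133, and 4 of them are among the 5 above. By the mean of the 5 B cell markers they were not the 6 lowest, since late lymphoma 138 (8.74) lay below 133 (9.16). The rise was lost as well without the 5 lymphomas highest in plasma cell genes (0.77, adjusted p = 0.0604, limma).

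**Figure D3:**
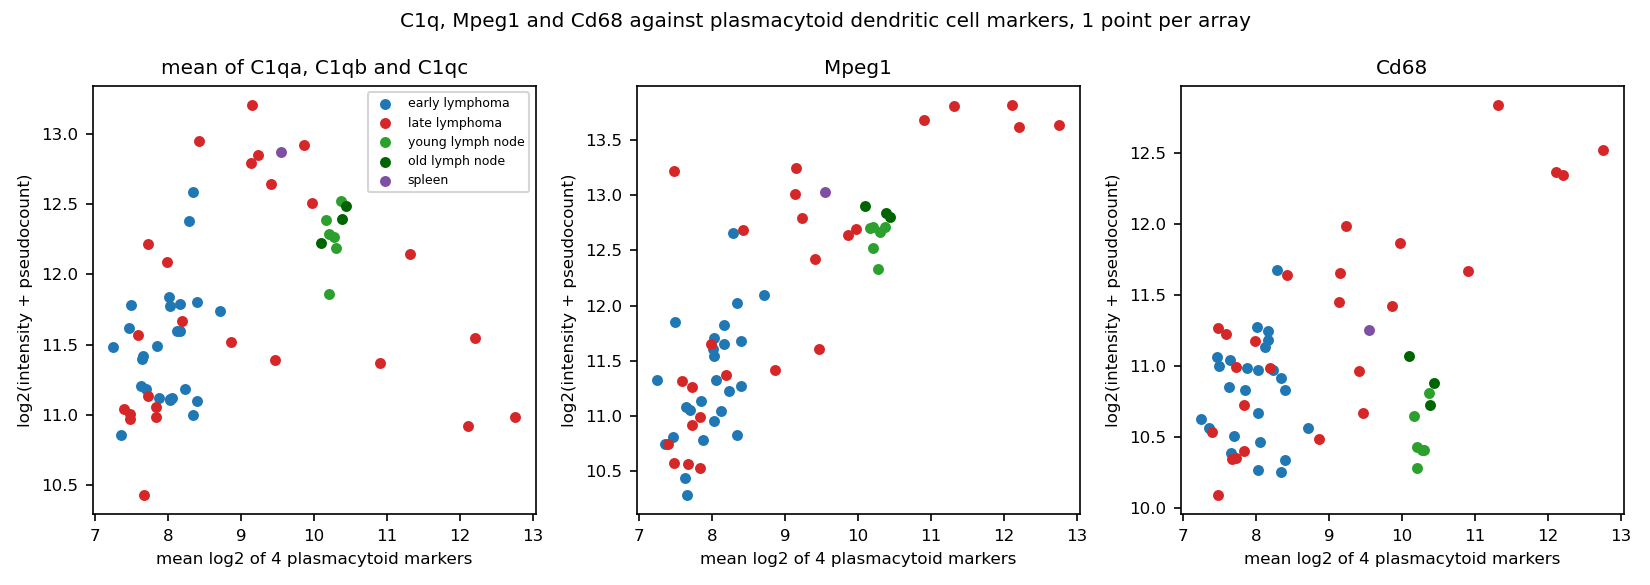
Mean of C1qa, C1qb and C1qc, Mpeg1 and Cd68 (each as log2(intensity + 15.7)) against the mean log2 level of 4 plasmacytoid dendritic cell markers, with 1 point per array. In the 5 late lymphomas at 10.90 and above on the x axis, Mpeg1 was 13.61 to 13.81 and Cd68 was 11.67 to 12.83, while the C1q mean was 10.93 to 12.15.

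Among the tumours some of the 10 genes varied together. Over the 25 early lymphomas Pearson's r between pairs of the 10 genes ran from -0.74 to 0.94 with a median of 0.11, and over the 25 late lymphomas from -0.27 to 0.96 with a median of 0.42. Of 45 pairs, 20 in early and 19 in late lymphomas passed Benjamini-Hochberg adjustment over all 90 relations (permutation test, two-sided, 100000 resamples). Pairs of other genes were not put to the same test, so whether these counts are high for the array is not known. The chains of C1q formed the tightest block, at 0.86 to 0.94 in early and 0.94 to 0.96 in late lymphomas. Between C1qa and Csf1r, r was 0.86 in both groups (rho 0.91 in early and 0.84 in late, permutation p = 1e-05 each, the smallest these permutations can give, adjusted 6.9e-05). Leaving out the 2 lymphomas farthest from the median C1qa gave 0.84 and 0.82. The other chains were less close to Csf1r in early lymphomas, C1qb at 0.75 and C1qc at 0.60. For C1qc this was 0.42 with 2 left out. In late lymphomas they had 0.76 and 0.75. Mpeg1 and Csf1r had r = 0.79 in early and 0.43 in late lymphomas.

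Other pairs had unlike values in early and late lymphomas. Cd68 and Mpeg1 had r = 0.89 in late lymphomas (rho 0.90, permutation p = 1e-05, adjusted 6.9e-05) and 0.43 in early ones (rho 0.26, permutation p = 0.031, adjusted 0.063). Without the 2 lymphomas farthest from the median Cd68 these were 0.88 and 0.19, so the early value rests on those 2. C1qa and Mpeg1 had r = 0.77 in early (rho 0.72, permutation p = 1e-05, adjusted 6.9e-05) and 0.36 in late lymphomas (rho 0.34, permutation p = 0.078, adjusted 0.12), and 0.66 and 0.30 with 2 left out. Marco and C1qa had r = -0.11 in early (rho -0.06, permutation p = 0.6, adjusted 0.72) and 0.54 in late lymphomas (rho 0.50, permutation p = 0.0063, adjusted 0.021), and 0.11 and 0.45 with 2 left out. Cd163, the haemoglobin receptor, ran against Mpeg1 in early lymphomas at r = -0.74 (rho -0.66, permutation p = 2e-05, adjusted 0.00012), and at -0.61 with 2 left out. This value is uncertain, since Cd163 lay below the array median in 21 of the 25 early lymphomas, with an intensity of 4.534 at the lowest. The differences between the groups were not tested, and all values on an array share its scaling.

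**Figure D4:**
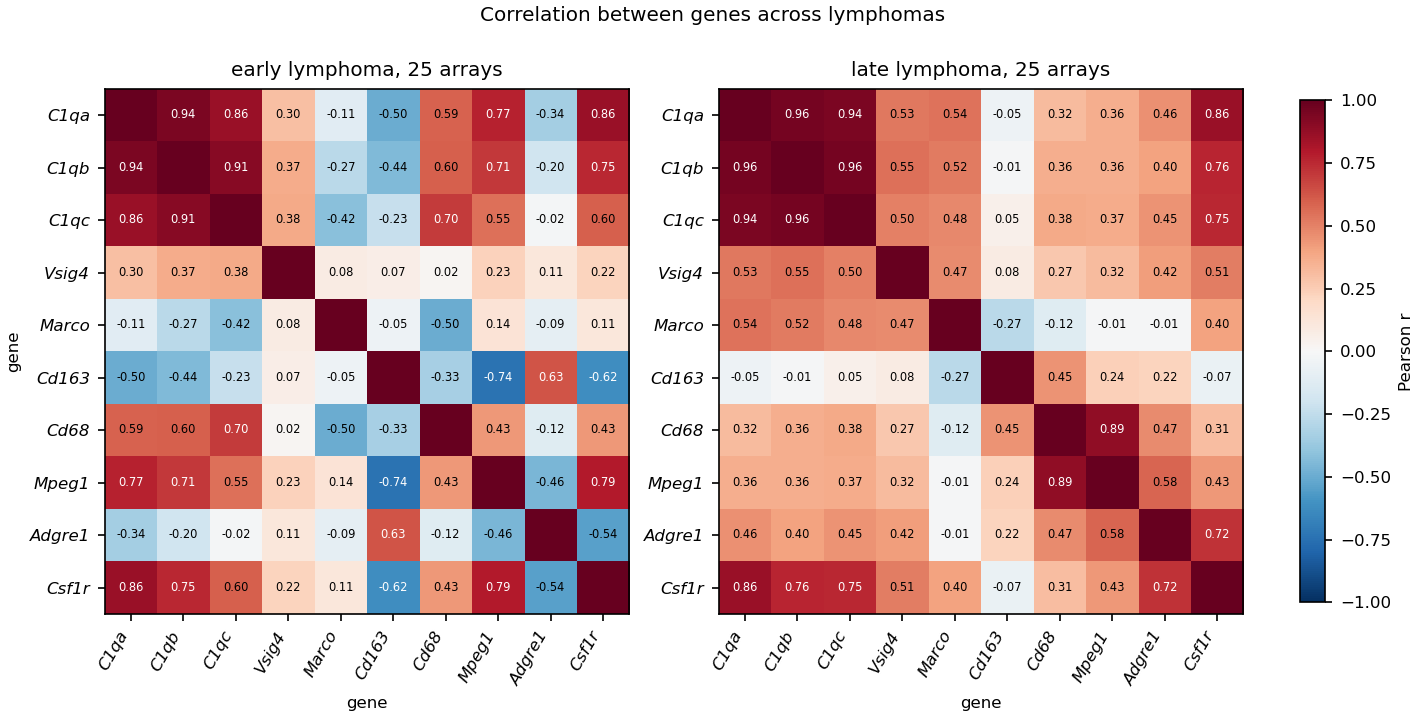
Pearson's r between the log2 levels of each pair of the 10 genes over 25 early lymphomas and over 25 late lymphomas, from -1 in blue to 1 in red. The C1q chains form a block in both groups. With Csf1r they have r of 0.60 to 0.86 in early and 0.75 to 0.86 in late lymphomas. Cd68 with Mpeg1 reaches 0.89 in late and 0.43 in early lymphomas.

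The genes most like the C1q mean over the 50 lymphomas, members aside, were Ms4a6d (r = 0.86), Aif1 (0.83), Fcgr4 (0.81), Slc11a1 (0.81) and Cttnbp2nl (0.80). Aif1 encodes the macrophage protein Iba1, Fcgr4 an activating receptor for IgG and Slc11a1 a metal transporter of the phagosome. The genes most like Marco were others, and less close: Gimap3 (0.66), Gimap7 (0.64), Steap4 (0.62), Lyve1 (0.61) and Ackr2 (0.60). Lyve1 and Ackr2 are known from lymphatic endothelium, and Lyve1 from some resident macrophages too. Mpeg1 was closest to Tyrobp (0.94), the signalling adaptor of many myeloid receptors, and Cd68 to Syngr2 (0.85). Across the 50 lymphomas Siglech had r = 0.69 with Mpeg1 and 0.07 with the C1q mean. With Mpeg1 it was -0.07 over early and 0.74 over late lymphomas, and with the C1q mean -0.18 and 0.00. These are descriptions over tumours that pool both onset groups, with no test.

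No gene of the 10 had a slope on age of onset that passed adjustment in late lymphomas. A slope is the log2 change for each doubling of the age. In late lymphomas 9 of the 10 slopes were positive with a median of 0.95, and 8 had an unadjusted p of at most 0.05, as did 12.8% of all genes in the positive direction. With limma and adjustment over all probe sets 0.0159% of all genes were called. The slopes of Mpeg1 (1.52 ± 0.54, adjusted p = 0.141, limma), Vsig4 (1.13 ± 0.34, adjusted p = 0.122, limma) and C1qa (1.12 ± 0.44, adjusted p = 0.162, limma) were the steepest. In early lymphomas the median slope was -0.27, and only Vsig4 passed the test, falling by 0.83 ± 0.26 for each doubling of age (adjusted p = 0.0472, limma), among 9.29% of genes called in either direction. That call was lost under quantile normalization, with a pseudocount 10 times smaller and with a filter of 30 arrays.

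The slopes of the late and early lymphomas were then compared in 1 fit. They differed for Vsig4, by 1.96 ± 0.46 (adjusted p = 0.0062, limma), and for Adgre1, by 1.48 ± 0.50 (adjusted p = 0.0419, limma), while 15.3% of all genes were called. Under quantile normalization neither was called (Vsig4 1.32, adjusted p = 0.0651, and Adgre1 1.52, adjusted p = 0.0516, limma). This comparison depends on scaling in general, since centring on the median moved the median difference over all probe sets from 0.17 to -0.44.

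**Figure D5:**
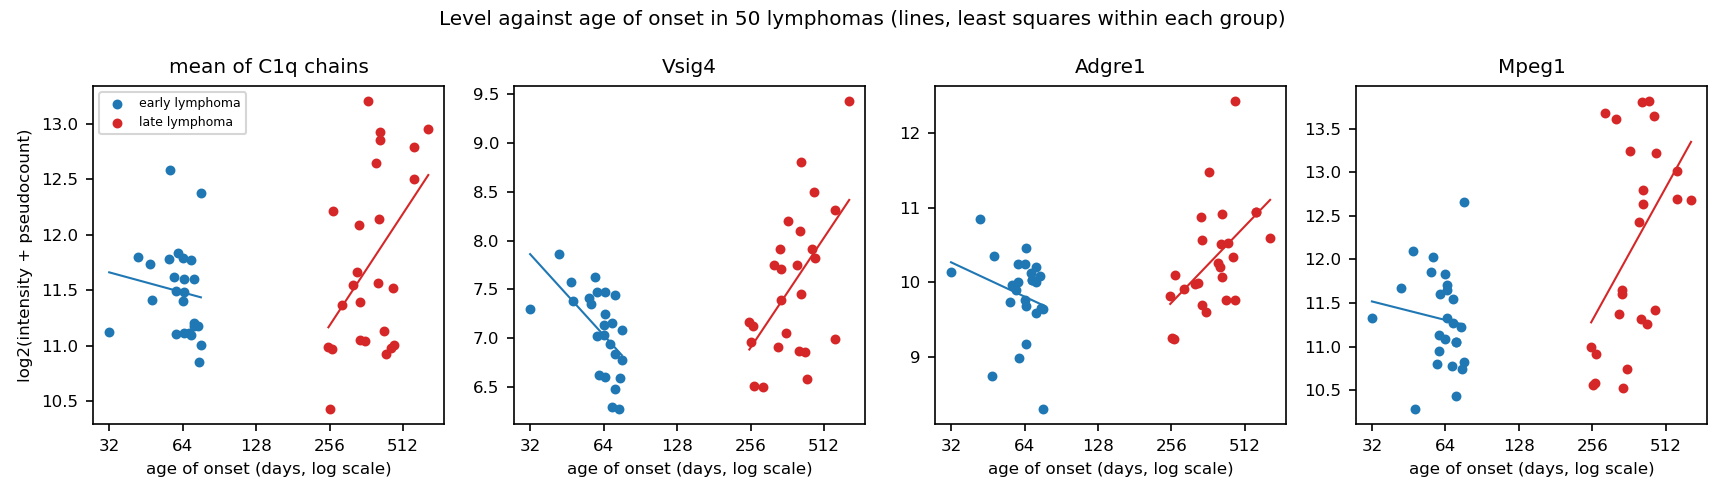
The mean of the C1q chains, Vsig4, Adgre1 and Mpeg1, as log2(intensity + 15.7), against age of onset in days on a log axis in 25 early and 25 late lymphomas, with a least-squares line for each group. The lines rise with age in late lymphomas, and the line of Vsig4 falls in early lymphomas.

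Between 3 old and 6 young lymph nodes limma called none of the 10, and 1.59% of all genes, in either direction. The median change was 0.09, and 2 genes had an unadjusted p of at most 0.05: Cd68 at 0.39 ± 0.12 (adjusted p = 0.141, limma) and Mpeg1 at 0.24 ± 0.09 (adjusted p = 0.224, limma), with all 3 old nodes above the young ones for Mpeg1. The difference between the onset change of lymphoma and the age change of lymph node was called for none of the 10 and for 0.0% of all genes by limma, and for none at an unadjusted p of 0.05. Its interval for Mpeg1 reached from -0.64 to 1.86, so differences of that size could not be detected with 3 old nodes.

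Other genes of these pathways were counted in lists by their known role, against lymph node and from early to late. Of 20 complement genes measured, 14 fell and 1 rose in early lymphomas (median -1.55), 10 fell and 1 rose in late lymphomas (median -1.03), and 5 rose from early to late. Of all genes, 38.1% were called lower and 29.7% higher in early lymphomas, 29.0% lower and 24.0% higher in late lymphomas, and 11.1% higher and 12.7% lower from early to late. Cr2, the complement receptor of B cells and follicular dendritic cells, fell in both, with log2 changes of -3.88 ± 0.28 in early and -4.01 ± 0.32 in late lymphomas. C1s1, a protease of the C1 complex, fell likewise (-3.17 ± 0.22 and -2.92 ± 0.36), as did Cfb, of the alternative pathway (-3.11 ± 0.42 and -2.69 ± 0.36). C1s1 and Cr2 lay below every lymph node in all 50 lymphomas, though how common this is among all genes was not counted. From early to late the integrin chains of complement receptors rose: Itgax by 1.21 ± 0.37 (adjusted p = 0.0152, limma), Itgb2 by 0.99 ± 0.22 (adjusted p = 0.00179, limma) and Itgam by 0.76 ± 0.26 (adjusted p = 0.0281, limma). Without the 6 lymphomas highest in plasmacytoid or neutrophil markers Itgax was not called (0.70 ± 0.34, adjusted p = 0.146, limma), while Itgb2 (0.83 ± 0.23, adjusted p = 0.0179, limma) and Itgam (0.71 ± 0.24, adjusted p = 0.0401, limma) were.

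Most markers of resident macrophages fell with Marco. Of 10 measured genes of sinus, marginal zone and red pulp macrophages, 8 fell and 1 rose in early lymphomas (median -0.85), and 6 fell in late ones (median -0.56), beside 38.1% and 29.0% of all genes called lower. In early lymphomas 29.7% of all genes were called higher, and the gene that rose was Slc40a1 (0.58 ± 0.23, adjusted p = 0.0282, limma). Its late change of 0.31 ± 0.27 and those of Hmox1 (0.17 ± 0.18 in early, 0.05 ± 0.25 in late) were not called. Cd209b, the lectin SIGN-R1 of marginal zone and medullary macrophages, changed by -4.68 ± 0.30 in early and -4.37 ± 0.29 in late lymphomas. Its log2 level in the normal spleen was 7.26, below every lymph node and near the medians of early (7.49) and late lymphomas (7.47). Timd4, a receptor for phosphatidylserine on dying cells, changed by -3.32 ± 0.30 and -4.07 ± 0.38, and in the spleen it was 11.03, within the range of the nodes. Cd209b and Timd4 lay below every lymph node in all 50 lymphomas, again without a count of such genes over the whole array. Cd5l, a secreted macrophage protein, changed by -1.72 ± 0.28 in early lymphomas (adjusted p = 1.36e-06, limma). Its late change against lymph node of -0.36 ± 0.54 was not called (adjusted p = 0.595, limma). Between early and late, Timd4 fell further by 0.75 ± 0.28 (adjusted p = 0.0452, limma) while Cd5l rose by 1.36 ± 0.35 (adjusted p = 0.00518, limma), with 13 of 25 late lymphomas above every early one. Without the 6 lymphomas Timd4 changed by -0.57 ± 0.30 (adjusted p = 0.18, limma) and Cd5l by 1.16 ± 0.37 (adjusted p = 0.0292, limma). Spic, the transcription factor of red pulp macrophages, changed by -0.98 ± 0.19 in early and -1.43 ± 0.39 in late lymphomas.

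Of 21 phagocytic receptors and their ligands 16 fell and 1 rose in early lymphomas (median -1.12), and 12 fell and 2 rose in late ones (median -0.79), against 38.1% and 29.0% of all genes called lower and 29.7% and 24.0% called higher. Mfge8, which bridges dying cells to phagocytes, changed by -2.76 ± 0.37 and -2.82 ± 0.27, and Cd36, a scavenger receptor, by -2.61 ± 0.36 and -2.13 ± 0.33. From early to late 5 rose and 1 fell, where 11.1% of all genes were called higher and 12.7% lower. Fcgr4 rose by 1.27 ± 0.32 (adjusted p = 0.00427, limma), Tyrobp by 0.94 ± 0.29 (adjusted p = 0.0156, limma) and Fcer1g, the common chain of Fc receptors, by 0.85 ± 0.26 (adjusted p = 0.0149, limma). Without the 6 lymphomas highest in plasmacytoid or neutrophil markers 2 rose in place of 5, with Fcgr4 at 1.45 ± 0.35 (adjusted p = 0.00819, limma), Tyrobp at 0.26 ± 0.19 (adjusted p = 0.345, limma) and Fcer1g at 0.45 ± 0.24 (adjusted p = 0.184, limma).

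Of 18 lysosomal genes measured, 15 fell in early lymphomas (median -0.66) and 7 in late ones (median -0.43), counts that became 8 and 4 after centring on the median, with 1 and 2 rising. After centring, 6478 of all 27094 probe sets kept were called lower and 12228 higher in early lymphomas. In late lymphomas these were 5233 and 10197. From early to late 3 of the 18 rose. Before centring, 38.1% of all genes were called lower in early and 29.0% in late lymphomas, and 11.1% were called higher from early to late. Ctsl, a cathepsin protease, changed by -1.78 ± 0.13 in early and -1.15 ± 0.32 in late lymphomas, and Lyz2, the macrophage lysozyme, by -1.09 ± 0.20 and -1.35 ± 0.27. Psap, the precursor of the saposins, changed by -1.08 ± 0.11 in early and -0.79 ± 0.18 in late lymphomas. Lyz1, a lysozyme gene nearly identical to Lyz2 that may share its signal, changed by -0.84 ± 0.17 in early and -1.10 ± 0.25 in late lymphomas. From early to late Ctsl rose by 0.63 ± 0.21, Grn, progranulin, by 0.60 ± 0.14 and Ctss, cathepsin S, by 0.49 ± 0.15. None of the 18 was called by limma without the 6 lymphomas named above.

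Growth factors and transcription factors of the myeloid lineage fell in 11 of 13 cases in early (median -0.95) and 7 of 13 in late lymphomas (median -0.87). Csf1, the ligand of Csf1r, changed by -1.65 ± 0.19 in early and -1.72 ± 0.19 in late lymphomas. It lay below every lymph node in 24 of 25 early and in all 25 late lymphomas. Cebpa, a factor that directs myeloid differentiation, changed by -2.53 ± 0.19 and -2.24 ± 0.38, and Maf, a macrophage and T cell factor, by -2.25 ± 0.15 and -1.97 ± 0.20. Csf2rb, a cytokine receptor chain, fell by 2.11 ± 0.20 in early lymphomas, and its late change of -1.0 ± 0.44 was not called. From early to late Csf2rb rose by 1.11 ± 0.29, its partner chain Csf2ra by 0.62 ± 0.22 and the factor Cebpb by 0.58 ± 0.21, and 1 of these 13 genes was called without the 6 lymphomas. Of 9 monocyte genes 7 fell in early (median -1.49) and 4 in late lymphomas (median -1.14). Cx3cr1, the fractalkine receptor, changed by -2.12 ± 0.22 in early and -1.75 ± 0.33 in late ones. S100a4, a calcium-binding protein, fell by 2.43 ± 0.27 in early lymphomas, and its late change of -1.38 ± 0.63 was not called. Fn1, fibronectin, changed by -1.65 ± 0.27 in early and -1.60 ± 0.40 in late lymphomas. Ms4a6c changed by -1.91 ± 0.20 and -1.17 ± 0.36, and it was the one gene of the 9 called from early to late (0.74 ± 0.24; 0.60 ± 0.24 without the 6 lymphomas, adjusted p = 0.0748, limma). After centring on the median, the late falls numbered 3 in place of 6 among resident macrophage genes and 5 in place of 7 among growth and transcription factors. At that setting 5233 of all 27094 probe sets kept were called lower in late lymphomas. Before centring, 38.1% of all genes tested were called lower in early and 29.0% in late lymphomas, and 11.1% were called higher from early to late.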

How the data were processed

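Arrays of 60 samples were analysed. The authors deposited a linear intensity for each probe set, made with MAS5 (version not stated) per the submitters' processing notes. Detection calls and scan dates were not used here. Trimmed of 2% of probe sets at either end, the mean intensity was 500.0 on every array, so the authors' values share 1 scale.

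The members and lists were chosen with earlier results of these data known. Probe sets were named through the platform annotation where it gives 1 gene (34945 of 45101; 34741 found in RefSeq, GRCm38.p6), and 932 naming several were not used for names. Values were taken as log2(intensity + 15.7), a pseudocount of the table's median (157) divided by 10, so changes of dim genes are understated. The filter kept 27094 probe sets that exceeded the median of their array on 10 or more arrays, without 64 controls. A gene was represented by its brightest probe set, with the others as alternatives.

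Comparisons used limma 3.58.1 in R 4.3.3 (lmFit and a trended eBayes), two-sided, with Benjamini-Hochberg adjustment over all kept probe sets. Named were the 10 members, of each list up to 3 genes with the largest change past the threshold in each of 3 comparisons, and the 5 genes most like C1q and Marco. Mpeg1's and Cd68's nearest genes were named after their values were seen. Correlations used permutation tests in Python 3.11.15 (scipy 1.17.1). The fits were tested on simulated data: of probe sets changed by 1 on the log2 scale, 89% were recovered for early lymphoma against lymph node, 82% for late lymphoma against lymph node and 93% for late against early. Samples of the same label number did not deviate together (correlation -0.108 to 0.0872 over 9 shared numbers), so no pairing was used. The number of arrays limits the precision.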

Additional observations from a re-analysis of the deposited data

Results flagged for a closer look

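The spleen, left out of the tests as a single sample of another organ, lay above every lymph node for 8 of the 10 genes. Its log2 levels were 12.60 for C1qb, 13.23 for C1qc, 8.97 for Vsig4, 10.03 for Cd163, 11.26 for Cd68, 13.03 for Mpeg1, 11.35 for Adgre1 and 14.11 for Csf1r. The value for Cd163 was above all 59 other arrays, while Marco was lower in the spleen than in any lymph node.

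The change of 2 genes with age of onset differed between late and early lymphomas by a test of the difference itself, by 1.96 for Vsig4 and 1.48 for Adgre1 on the log2 scale for each doubling of age (limma, adjusted p = 0.0062 and 0.0419). By the same test 15.3% of all genes were called, and under quantile normalization neither of the 2 genes was.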

How the results depend on the processing

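Of 429 refits of single genes under other settings, 358 kept their direction and their side of the threshold, 36 lost a call, 17 gained one and 18 changed sign. The counts of members lower against lymph node kept within 1.5 times in early lymphomas under every setting run. Members higher numbered 1 in early lymphomas after centring (0 as reported). In late lymphomas against lymph node they numbered 2 after centring, and 0 against old lymph nodes alone and without the lymphomas highest in plasmacytoid or neutrophil markers, in place of 1. Leaving out 1 array gave 0 to 1, with 0 only without young lymph node 4. From early to late, 4 as reported became 1 with no filter, after centring, with RNA ratios as covariates and without the lymphomas highest in plasmacytoid or neutrophil markers, 2 without those low in B lineage genes and 0 without those highest in plasma cell genes. Leaving out 1 lymphoma gave 1 to 5. It was 1 without late lymphoma 124 or 128 and 2 without early lymphoma 11, 15, 26 or 29 or late lymphoma 117, 119, 120, 127, 133, 137 or 141. The single slope called in early lymphomas became 0 with a pseudocount 10 times smaller, a filter of 30 arrays or quantile normalization. The 2 slope differences became 0 under quantile normalization, 1 after centring or without the lymphomas highest in plasma cell genes, and 5 without those highest in plasmacytoid or neutrophil markers.

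No sign change concerned a called value. For early lymphoma against lymph node they were Vsig4 (0.13 under quantile normalization, 0.14 centred, 0.17 with the label number as replicate block) and Cd163 (0.03 and 0.06 under the first 2). For late lymphoma against lymph node they were C1qb (0.05) and Adgre1 (0.23) after centring, and Cd163 (-0.00 without those low in B lineage genes, -0.20 with all 10 normal tissues, -0.14 without the highest in plasmacytoid or neutrophil markers). For late against early they were Csf1r (-0.05 centred, -0.06 with RNA covariates, -0.11 without the highest in plasma cell genes). For the slope difference they were Cd163 (-0.60 under quantile normalization, -0.61 centred, -0.07 and -0.13 without the 2 groups just named for Cd163) and Cd68 (-0.05 centred). With the replicate block Adgre1 in early lymphomas was -0.37 and lost its call (adjusted p = 0.0634, limma). The causes were not tested.

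Over all probe sets, the share of calls that were higher moved with scaling, in early lymphomas against lymph node from 41.8% to 55.0% (quantile) and 65.4% (centred), in late lymphomas from 40.9% to 55.4% and 66.1%, and from early to late from 43.6% to 39.0% and 31.5%. The median change moved from -0.12 to 0.08 and 0.22 in early lymphomas. Calls from early to late numbered 2596 higher and 3355 lower as reported, 767 and 979 with RNA covariates, 995 and 1371 without the highest in plasma cell genes, and 1729 and 2007 without the highest in plasmacytoid or neutrophil markers. Late lymphoma against old lymph nodes alone gave 3613 and 4489 in place of 5888 and 8510. The onset change minus the age change gave 1 call as reported and 306 higher and 211 lower with array weights. Calls of the slope in early lymphomas were 542 higher and 1892 lower, against 932 and 631 (quantile), 7311 and 431 (centred) and 669 and 4469 (no filter). Those of the slope difference were 2419 and 1307, against 557 and 1191 (quantile), with 7377 lower after centring. Old against young lymph nodes gave 231 and 155, 109 and 87 without old lymph node 8, 125 and 43 without old lymph node 10, and 0 with RNA covariates. Dim signal limits Vsig4, Cd163 and the low end of Marco.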
